A study of Mus musculus with 6 samples.

Results

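The transcripts encoded by the mitochondrial chromosome were examined in mouse hearts injured by ischemia and reperfusion (I/R), where blood flow to the muscle is cut off and later let back in. Members were all rows of the deposited gene table whose gene name begins with mt-, which gave 37 of 55359 rows: 13 mRNA genes, 2 rRNA genes and 22 tRNA genes. C57BL/6 mice had received AAV9, an adeno-associated virus, through the tail vein, carrying an shRNA directed at YTHDF2 or a negative control shRNA (NC), in a vector with GFP under cTNT, a promoter of heart muscle cells. The surgery followed after 4 weeks, and all hearts had ischemia for 45 min and reperfusion for 24 h, so the control libraries are injured hearts too. The 3 control libraries are called shNC 1 to 3, and the 3 with the YTHDF2 label are called shYthdf2 1 to 3. Nothing in the labels says that libraries of a group came from separate animals, so the spread that the p-values measure is that of these samples and may be technical.

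Mitochondrial DNA is a small circle present in many copies per cell. Its genes are transcribed as long precursors of both strands, and in most places tRNAs lie between the other genes and are cut out to release mRNAs and rRNAs. The mRNAs encode core subunits of respiratory complexes I, III, IV and V, and the rRNAs and tRNAs serve the ribosomes inside the organelle. All other subunits of these complexes, and the proteins that copy, transcribe, process or translate mitochondrial DNA, come from nuclear genes. Heart muscle is rich in mitochondria, and in I/R the respiratory chain is both a source of reactive oxygen and a site of damage.

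Between 67023813 and 77561552 counts were assigned to genes per library. The targeted gene Ythdf2 had library-scaled counts (CPM) of 20.7, 24.3 and 27.0 across shNC 1 to 3 against 25.1, 25.6 and 32.7 across shYthdf2 1 to 3. Where the label names YTHDF2 shRNA, the gene was thus no lower (log2 fold change 0.21 ± 0.20 SE, edgeR quasi-likelihood test, adjusted p = 0.976), and each direction given here is between libraries labelled in this way. CPM express counts relative to library size after TMM, a scaling that assumes that most genes do not differ. Of 12 cardiomyocyte markers none was at 0, and they summed to 25832 to 62740 CPM in shNC and 31868 to 37274 CPM in shYthdf2. As hearts were sequenced in bulk, fewer cells of a type and less RNA per cell cannot be told apart.

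One property bears on every value: 7 rows on chromosome 1 repeat mitochondrial genes almost letter for letter. All 37 members had the position and length of GENCODE M21 (GRCm38), and a search of its transcripts with their sequences returned 56 rows of the table in the same direction. Of these, 34 had no count in any library, 10 had more than 1000 counts on average, and 7 met the limits of at least 99% identity over at least 200 bases. Those 7 are annotated as unprocessed pseudogenes and lie side by side on the minus strand, between 24650616 and 24655278 in the coordinates of the deposited table, whose build is not given in the sources used here. They repeat mt-Co2 (Gm28661, 681 bases), mt-Co3 (Gm28437, 783 bases), mt-Atp6 (Gm10925, 678 bases), mt-Nd4 (Gm28439, 876 bases) and mt-Nd4l (Gm10222, 294 bases) with 100% identity. The remaining copies, of the end of mt-Co1 (Gm29216, 483 bases) and of mt-Nd3 (Gm28438, 345 bases), each differ at 1 base. The differences are A1066T in mt-Co1 and T3C in mt-Nd3, counted from the first base of the mitochondrial gene. A stretch of each pair is shown with the differing base in capitals, because within the aligned part only reads that cover this base could be told apart.
mt-Co1: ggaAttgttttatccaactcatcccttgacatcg
Gm29216: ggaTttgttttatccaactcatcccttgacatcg
mt-Nd3: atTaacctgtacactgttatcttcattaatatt
Gm28438: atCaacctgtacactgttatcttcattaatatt

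Counts were divided between gene and copy in a nearly fixed proportion for some pairs and not for others. For mt-Co2, mt-Co3, mt-Nd3 and mt-Nd4l the copy held 46.7% to 49.99% of the counts of the pair in every library. For mt-Atp6 the copy held 82.7% to 83.9%, so the row of the mitochondrial gene kept the smaller portion. These proportions overlapped between the groups. For mt-Nd4, of which the copy covers 63.6%, the copy held 19.6%, 16.2% and 20.9% across shNC 1 to 3 against 20.9%, 21.8% and 24.6% across shYthdf2 1 to 3. For mt-Co1, of which the copy covers the last 31.3%, it held 18.1%, 20.8% and 17.2% across shNC 1 to 3 against 16.2%, 16.6% and 11.6% across shYthdf2 1 to 3. Here every shYthdf2 library lay below every shNC library. Gm13340 on chromosome 2, with 97.6% identity to mt-Co1, took 10345 counts on average, or 0.174% of those of mt-Co1. Results are therefore given for the rows as deposited and, where it changes them, with the 7 copies added to their genes. Only annotated transcripts were searched, so a copied stretch between the 7 rows, where no transcript is annotated, would not be seen. On the mitochondrial chromosome mt-Atp8 and some tRNA genes lie between the copied genes, and no copy is added to them.

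Mitochondrially encoded transcripts took 25.5%, 23.6% and 20.5% of all counts across shNC 1 to 3 against 26.0%, 26.1% and 27.3% across shYthdf2 1 to 3. The Wilson 95% interval of these shares had a half-width of at most 0.0102 percentage points, which covers counting error only. With the copies added the shares were 34.3%, 32.3% and 27.2% across shNC 1 to 3 against 34.4%, 34.9% and 34.8% across shYthdf2 1 to 3. The groups did not overlap in either form, but with copies shNC 1 lay just under shYthdf2 1, and shNC 3 was far below all others. The difference of the group means was 3.28 percentage points, and 1.92 without shNC 3. shNC 3 also stood apart in Rn18s, a row of cytosolic 18S rRNA, with 9737 CPM beside 1439 to 4636 CPM in the other libraries, and it had the lowest sum of cardiomyocyte markers. The part of either in the mitochondrial share was not tested.

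**Figure D1:**
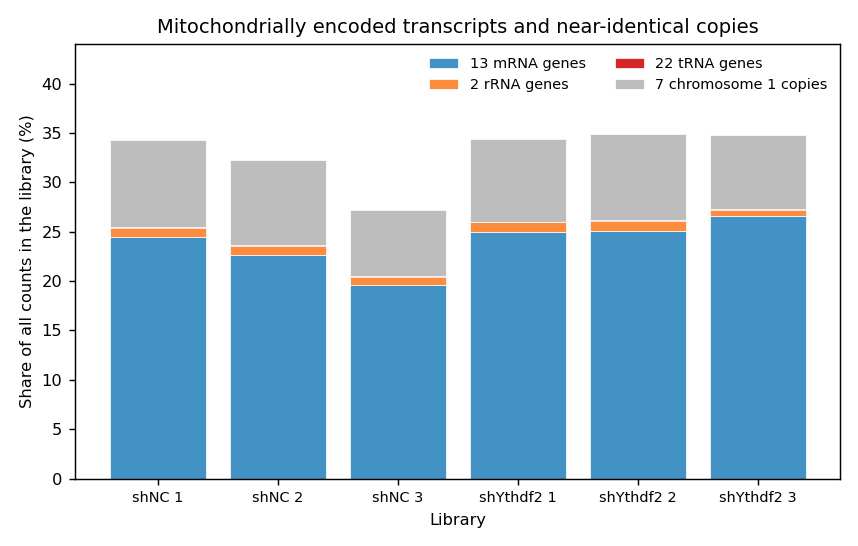
Share of all counts (vertical axis, percent) taken in each library by the mRNA, rRNA and tRNA genes of the mitochondrial chromosome and by the 7 near-identical rows of chromosome 1, as stacked bars from 0. The tRNA band, at most 0.328% of mitochondrial counts, is too thin to see, and shNC 3 has the shortest bar.

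Per unit of length the mRNA genes filled the top of the table. Of the 20 rows with the highest mean FPKM (fragments scaled to gene length and library size, as deposited) over 6 libraries, 13 were mitochondrial and the other 7 were their chromosome 1 copies. With copies added the highest were the complex IV genes mt-Co2, mt-Co1 and mt-Co3, with means of 56099, 55897 and 46141 FPKM. mt-Co2 lay above mt-Co1 in 3 of 6 libraries, so this pair had no fixed order, and mt-Co1 lay above mt-Co3 in 5 of 6. mt-Cytb followed with 25887 FPKM, below mt-Co3 in 6 of 6 libraries. mt-Atp6 (22788), mt-Nd1 (20238), mt-Nd4 (19014) and mt-Nd3 (18409 FPKM) came next. Among these, mt-Nd1 exceeded mt-Nd4, and mt-Nd4 exceeded mt-Nd3, in only 4 of 6 libraries. mt-Atp8 (10345), mt-Nd6 (9742), mt-Nd2 (9630) and mt-Nd4l (9012 FPKM) formed a lower group, in which each exceeded the next in 3 or 4 of 6 libraries. mt-Nd5 was the lowest mRNA with 5536 FPKM, 10.1-fold under mt-Co2. Without the copies the lowest mRNA was mt-Atp6 with 3822 FPKM and the highest mt-Co1 with 46616 FPKM. The rRNA genes lay lower still, with 3107 FPKM for mt-Rnr2 and 3064 FPKM for mt-Rnr1, and the median tRNA gene had 64.1 FPKM. The effect of library preparation on rRNA was not tested, so these levels need not reflect the amounts of rRNA in the heart.

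**Figure D2:**
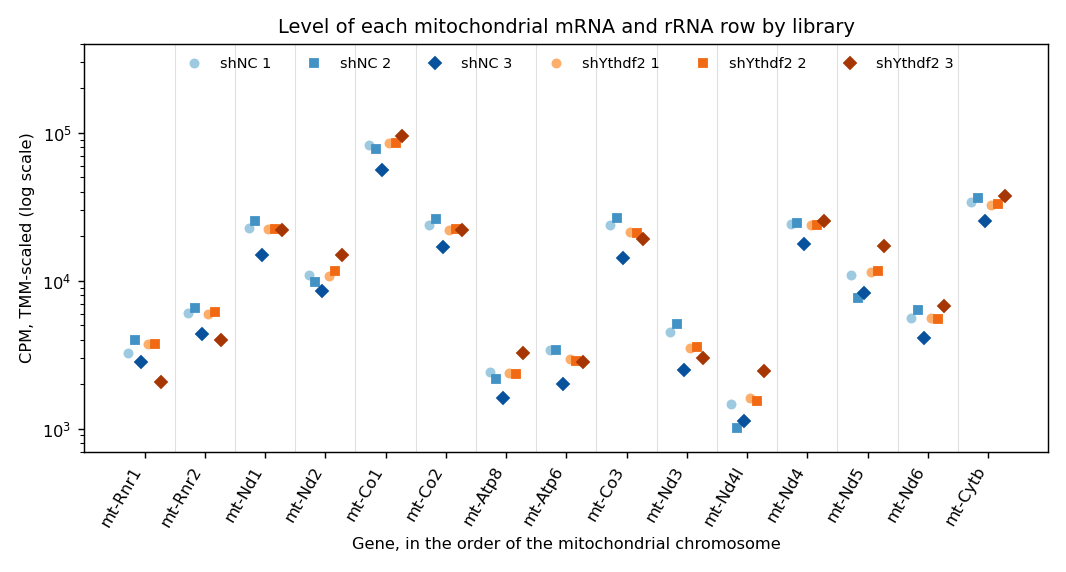
CPM on a log axis of each mitochondrial mRNA and rRNA row, without copies, in the 6 libraries (blue for shNC, orange and brown for shYthdf2), in the order of the chromosome. shNC 3 is lowest in 11 of 13 mRNA genes, shYthdf2 3 is highest in 8, and both rRNA rows are lowest in shYthdf2 3.

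The comparison asks whether an shRNA directed at YTHDF2, a reader of N6-methyladenosine in RNA, goes with other levels of these transcripts in the injured heart. Of the 37 members 36 passed the filter on low counts, and mt-Ts2 did not. In edgeR 0 of the 36 passed at an adjusted p under 0.05 and 0 had an unadjusted p under 0.05, and DESeq2 and limma also called 0. Across all 20489 genes tested 2 were called, or 0.00976%, and 748 had an unadjusted p under 0.05, or 3.65%. The adjusted p-values of the members ran from 0.976 to 0.999, and the lowest unadjusted p was 0.0615, for mt-Nd4l. The log2 fold change was above 0 for 9 of 13 mRNA genes, 0 of 2 rRNA genes and 11 of 21 tested tRNA genes. The medians were 0.13, -0.07 and 0.06, beside -0.01 over all genes tested. The median of the mRNA genes was -0.0037 without shNC 3 and 0.25 without shNC 2. Among the mRNA genes the 95% intervals reached from -1.03 (mt-Nd3) to 1.32 (mt-Nd5), so smaller differences in either direction may have gone undetected with 3 against 3 libraries.

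**Figure D3:**
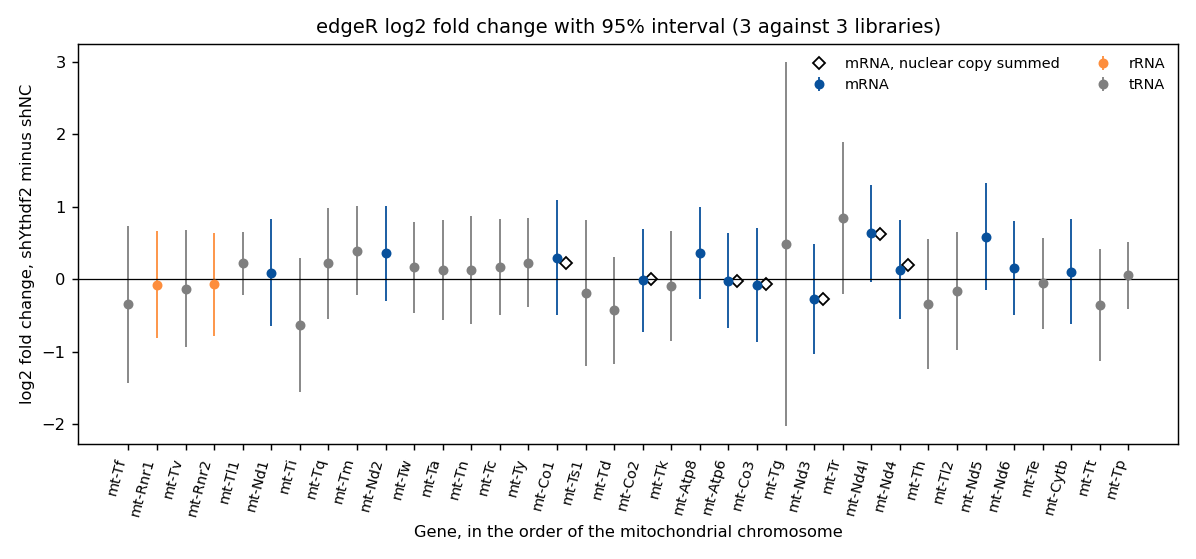
Log2 fold change (shYthdf2 minus shNC, edgeR) of the 36 tested members in chromosome order, with 95% intervals as bars. Open diamonds give the value with the nuclear copy summed for 7 genes, and every interval includes 0.

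The 7 complex I genes encode membrane-bound ND subunits of the enzyme that oxidises NADH and pumps protons. mt-Nd5 (chromosome MT, 11742 to 13565, plus strand) had CPM values of 11018, 7661 and 8212 across shNC 1 to 3 against 11478, 11679 and 17262 across shYthdf2 1 to 3. The shYthdf2 libraries lay above all shNC libraries, but shYthdf2 1 only by a small step over shNC 1, and shYthdf2 3 was far above the rest. The log2 fold change of mt-Nd5 was 0.59 ± 0.31 (SE, edgeR adjusted p = 0.976). mt-Nd4l (9877 to 10173, plus strand) had CPM values of 1474, 1015 and 1134 across shNC 1 to 3 against 1605, 1548 and 2458 across shYthdf2 1 to 3, again without overlap and with shYthdf2 3 far above. Its log2 fold change was 0.63 ± 0.29 (SE, adjusted p = 0.976), and that of its copy Gm10222 was 0.61. Over the alternatives tried, mt-Nd5 lay between 0.37 and 0.77 and mt-Nd4l between 0.39 and 0.80, with the lower value of each found without shYthdf2 3. In CPM 3 of the 13 mRNA genes did not overlap between the groups, with shYthdf2 above in each (mt-Nd5, mt-Nd4l and mt-Co1). Of all 36 tested members 3 lay above and 1 below (mt-Td). Of all genes tested, 4.95% lay above in this way, 4.55% lay below and 9.51% did not overlap in either direction. No excess over these shares is read from so few genes. In the deposited FPKM, mt-Nd2, mt-Atp8 and mt-Nd4 also had shYthdf2 above without overlap. There mt-Td, mt-Tt and mt-Ts2, the last of which did not pass the filter, had shYthdf2 below without overlap. The share of all genes that did not overlap in FPKM was not computed, so neither direction can be set against a background.

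mt-Nd4l is printed from GENCODE M21, 5′ to 3′, because it had the lowest p of the members, and because its last 7 bases, in capitals, are also the first of mt-Nd4, so that some reads match both rows.
mt-Nd4l: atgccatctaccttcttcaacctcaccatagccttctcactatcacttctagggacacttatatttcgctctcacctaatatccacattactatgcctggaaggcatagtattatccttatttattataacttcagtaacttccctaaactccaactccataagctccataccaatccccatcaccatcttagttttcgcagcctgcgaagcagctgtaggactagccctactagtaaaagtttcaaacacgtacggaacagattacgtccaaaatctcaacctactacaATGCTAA

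mt-Nd2 (3914 to 4951, plus strand) had CPM values of 10881, 9807 and 8598 across shNC 1 to 3 against 10839, 11625 and 15061 across shYthdf2 1 to 3. Its groups overlapped by a narrow margin, with shYthdf2 3 highest, and its log2 fold change was 0.36 ± 0.28 (SE, edgeR adjusted p = 0.976). mt-Nd3 (9459 to 9806, plus strand) had CPM values of 4522, 5140 and 2494 across shNC 1 to 3 against 3499, 3540 and 3027 across shYthdf2 1 to 3. It was highest in shNC 1 and 2 and lowest in shNC 3, so the controls enclosed the shYthdf2 values, and its log2 fold change was -0.27 ± 0.32 (SE, adjusted p = 0.976), with -0.52 without shNC 3, -0.18 without shNC 1 and -0.06 without shNC 2. mt-Nd1, mt-Nd4 and mt-Nd6 had log2 fold changes of 0.09, 0.13 and 0.15, each with its lowest CPM in shNC 3, and mt-Nd4 had 0.20 with its copy added. mt-Nd6, the only mRNA gene on the minus strand (13552 to 14070), shares 14 bases with mt-Nd5. Use of strand in the counting is not stated, so reads of a row and of the opposite transcript cannot be told apart.

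mt-Co1, mt-Co2 and mt-Co3 encode the core of cytochrome c oxidase, complex IV, which passes electrons to oxygen. mt-Co1 (5328 to 6872, plus strand) took 8.08%, 6.98% and 6.33% of all counts across shNC 1 to 3 against 8.67%, 8.69% and 9.29% across shYthdf2 1 to 3. In CPM it had 82973, 77918 and 55871 across shNC 1 to 3 against 85421, 85853 and 94785 across shYthdf2 1 to 3, so the groups did not overlap and shNC 3 was lowest. Its log2 fold change was 0.30 ± 0.34 (SE, edgeR adjusted p = 0.976), and 0.22 with the copy added and 0.14 without shNC 3. mt-Co2 (7013 to 7696, plus strand) had CPM values of 23946, 26036 and 16887 across shNC 1 to 3 against 21940, 22272 and 22037 across shYthdf2 1 to 3. The shYthdf2 values were nearly equal and lay inside the shNC range, with a log2 fold change of -0.01 ± 0.30 (SE, adjusted p = 0.999). mt-Co3 (8607 to 9390, plus strand) had CPM values of 23801, 26621 and 14247 across shNC 1 to 3 against 21342, 20942 and 19106 across shYthdf2 1 to 3. Its shYthdf2 values also lay inside the range of shNC, with a log2 fold change of -0.08 ± 0.33 (SE, adjusted p = 0.988).

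mt-Cytb (14145 to 15288, plus strand) encodes cytochrome b of complex III and is the only mitochondrial gene of that enzyme. It had CPM values of 34242, 36477 and 25195 across shNC 1 to 3 against 32441, 33080 and 37375 across shYthdf2 1 to 3. The groups overlapped, with shNC 3 lowest and shYthdf2 3 highest, and the log2 fold change was 0.10 ± 0.31 (SE, edgeR adjusted p = 0.984).

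mt-Atp8 and mt-Atp6 encode subunits of the membrane part of ATP synthase, complex V, from overlapping reading frames. mt-Atp8 (7766 to 7969, plus strand) had CPM values of 2420, 2155 and 1621 across shNC 1 to 3 against 2368, 2331 and 3248 across shYthdf2 1 to 3. As with mt-Nd5, shYthdf2 3 was highest, while the other libraries overlapped, and the log2 fold change was 0.36 ± 0.27 (SE, edgeR adjusted p = 0.976). mt-Atp6 (7927 to 8607, plus strand) had CPM values of 3383, 3423 and 2013 across shNC 1 to 3 against 2976, 2888 and 2845 across shYthdf2 1 to 3. The shYthdf2 values lay inside the shNC range, with a log2 fold change of -0.02 ± 0.28 (SE, adjusted p = 0.998). The pair share 43 bases, shown in capitals at the end of mt-Atp8 (GENCODE M21, 5′ to 3′), where reads match both rows.
mt-Atp8: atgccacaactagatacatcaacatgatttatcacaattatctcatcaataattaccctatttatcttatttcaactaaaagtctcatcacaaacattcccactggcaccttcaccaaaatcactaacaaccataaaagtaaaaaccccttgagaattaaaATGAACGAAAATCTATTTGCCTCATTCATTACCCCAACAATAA

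mt-Rnr1 (70 to 1024, plus strand) and mt-Rnr2 (1094 to 2675, plus strand) encode the small and the large rRNA of the mitochondrial ribosome. mt-Rnr1 had CPM values of 3261, 3953 and 2835 across shNC 1 to 3 against 3750, 3748 and 2057 across shYthdf2 1 to 3. mt-Rnr2 had CPM values of 6024, 6510 and 4373 across shNC 1 to 3 against 5972, 6148 and 3968 across shYthdf2 1 to 3. Both were lowest in shYthdf2 3, the library in which mt-Nd5 and mt-Nd4l were highest, and next lowest in shNC 3. Their log2 fold changes were -0.07 ± 0.32 and -0.07 ± 0.30 (SE), with edgeR adjusted p-values of 0.988 each. As a share of mitochondrial counts the rRNA genes made up 3.55%, 3.96% and 3.99% across shNC 1 to 3 against 3.79%, 3.83% and 2.17% across shYthdf2 1 to 3. The groups overlapped, and the difference of the means, -0.571 percentage points, became -0.0212 without shYthdf2 3. The FPKM ratio of mt-Rnr2 to mt-Rnr1 ranged from 0.931 to 1.16 and overlapped between the groups.

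The tRNA genes carry the 1-letter code of their amino acid in their names. They made up 0.306%, 0.328% and 0.266% of mitochondrial counts across shNC 1 to 3 against 0.269%, 0.276% and 0.275% across shYthdf2 1 to 3, and these groups overlapped. Mature tRNAs are short and are not the target of a standard RNA library, so reads from tRNAs and reads from their precursors cannot be told apart. Levels spanned 721-fold, from 5.30 FPKM for mt-Ts2 to 3820 FPKM for mt-Te, on average over 6 libraries. The 8 genes of the minus strand had a median of 506 FPKM, and 6 of them lay above 100 FPKM. The 14 genes of the plus strand had a median of 34.9 FPKM, and 4 of them lay above 100 FPKM. Use of strand in the counting is not stated, so the rows of either strand may hold reads of the opposite transcript. The tRNA genes at the ends of the range of levels or of fold changes, or with the widest spread, are printed with the anticodon in capitals, from GENCODE M21 in DNA letters.
mt-Te: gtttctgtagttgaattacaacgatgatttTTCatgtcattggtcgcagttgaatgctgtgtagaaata
mt-Ti: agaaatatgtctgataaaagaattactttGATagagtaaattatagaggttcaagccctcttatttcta
mt-Tr: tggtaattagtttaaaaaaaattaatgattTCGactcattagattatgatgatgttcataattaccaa
mt-Tg: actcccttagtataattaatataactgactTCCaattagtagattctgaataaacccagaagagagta
mt-Ts2: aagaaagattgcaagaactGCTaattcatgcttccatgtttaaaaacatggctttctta

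mt-Te, for glutamate, lies between mt-Nd6 and mt-Cytb on the minus strand and had CPM values of 318, 387 and 202 across shNC 1 to 3 against 276, 294 and 304 across shYthdf2 1 to 3. The shYthdf2 values lay inside the shNC range. mt-Ti, for isoleucine, had CPM values of 80.5, 86.8 and 30.1 across shNC 1 to 3 against 45.9, 48.4 and 33.2 across shYthdf2 1 to 3. It was high in shNC 1 and 2 and lowest in shNC 3, and its log2 fold change of -0.63 ± 0.39 (SE, edgeR adjusted p = 0.976) was the most negative of the members, with -0.97 without shNC 3 and -0.38 without shNC 2. mt-Tr, for arginine, had CPM values of 6.08, 2.12 and 2.19 across shNC 1 to 3 against 5.73, 6.05 and 6.87 across shYthdf2 1 to 3. Here shNC 1 lay with the shYthdf2 libraries, and the log2 fold change of 0.84 ± 0.45 (SE, adjusted p = 0.976) was the most positive with all libraries. It was 1.53 without shNC 1, where mt-Tg was higher at 3.16, and ran down to 0.59 without shNC 2. mt-Tg, for glycine, had counts of 815, 63 and 27 across shNC 1 to 3 against 435, 477 and 383 across shYthdf2 1 to 3. The shNC values enclosed the others, and the 95% interval of the log2 fold change reached from -2.02 to 2.99.

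mt-Ts2, for serine, had 2, 153 and 2 counts in shNC and 2 counts in each shYthdf2 library, so nearly all of its reads were in shNC 2. mt-Td, for aspartate, had CPM values of 2.12, 2.23 and 1.79 across shNC 1 to 3 against 1.70, 1.50 and 1.36 across shYthdf2 1 to 3. It was the only tested tRNA gene whose groups did not overlap in CPM (log2 fold change -0.43 ± 0.32 SE, edgeR adjusted p = 0.976), where 4.55% of all genes tested lay below in this way. mt-Tl1, mt-Tm, mt-Tq, mt-Tw, mt-Ta, mt-Tn, mt-Tc, mt-Ty and mt-Tp had log2 fold changes from 0.06 (mt-Tp) to 0.39 (mt-Tm). mt-Tf, mt-Tv, mt-Ts1, mt-Tk, mt-Th, mt-Tl2 and mt-Tt had values from -0.35 (mt-Tt) to -0.10 (mt-Tk). Apart from mt-Ti and mt-Te, the negative values were those of the tested tRNA genes with the lowest mean FPKM.

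Within the mitochondrial counts, where library scaling plays no part, mt-Co1 took 31.8%, 29.5% and 30.9% across shNC 1 to 3 against 33.3%, 33.3% and 34.1% across shYthdf2 1 to 3. The groups did not overlap, with means of 30.7% ± 1.13 and 33.6% ± 0.445 (SD, n = 3, exact two-sided permutation p = 0.1). This p is the smallest that 3 against 3 libraries allow, and 37 shares were compared. With the copy added the means of mt-Co1 were closer, at 28.1% ± 0.717 and 30.1% ± 0.160 (SD, n = 3), again without overlap. mt-Co1 was the only one of 36 tested members above in this way, beside 1.47% of all genes tested when set per mitochondrial count. mt-Co2 had means of 9.46% ± 0.364 and 8.37% ± 0.391 and lay below in all shYthdf2 libraries (SD, n = 3, exact permutation p = 0.1). mt-Nd3 had 1.69% ± 0.286 and 1.28% ± 0.162 and also lay below, by a very narrow gap (SD, n = 3, exact permutation p = 0.1). With mt-Td and mt-Tt, 4 of 36 lay below, beside 12.5% of all genes tested, which is near that background. In either direction 14.0% of all genes tested did not overlap when set per mitochondrial count. The mitochondrial counts that divide each value took a higher share of every shYthdf2 library, so the backgrounds above and below are uneven. The complex I genes together had 30.9% ± 0.680 in shNC and 31.7% ± 1.20 in shYthdf2 (SD, n = 3), and the complex IV genes 49.2% ± 0.963 and 49.7% ± 0.737, both with overlap. With copies added the complex I genes had 26.1% ± 1.04 and 27.6% ± 1.72, and the complex IV genes 54.5% ± 1.09 and 54.0% ± 1.42 (SD, n = 3), again with overlap, so the sign of the small complex IV difference turned.

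The makeup of the mRNA pool varied most between a library of each label, with the others between them. For 10 of 13 mRNA genes, and for 9 of 13 with copies added, the highest and the lowest share were those of shNC 2 and shYthdf2 3, in one order or the other. mt-Nd5 took 2.90% of mitochondrial counts in shNC 2, 6.20% in shYthdf2 3 and 4.22% to 4.54% in the remaining libraries. mt-Nd4l, mt-Nd2 and mt-Atp8 were ordered like it at these ends. mt-Nd3 and mt-Co3 had the opposite order, and mt-Co3 took 10.1% in shNC 2 and 6.87% in shYthdf2 3. The root mean square difference of log2 shares over the 13 genes with copies was 0.61 between shNC 2 and shYthdf2 3. It was 0.03 between shYthdf2 1 and 2, the closest pair, and 0.07 and 0.09 between shNC 3 and these libraries. Between shNC 1 and shNC 2 it was 0.25, so libraries of different labels could be closer in makeup than libraries of the same label. shYthdf2 1 and 2 were also the most alike over all genes, and whether they share an animal or RNA is not stated in the labels.

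**Figure D4:**
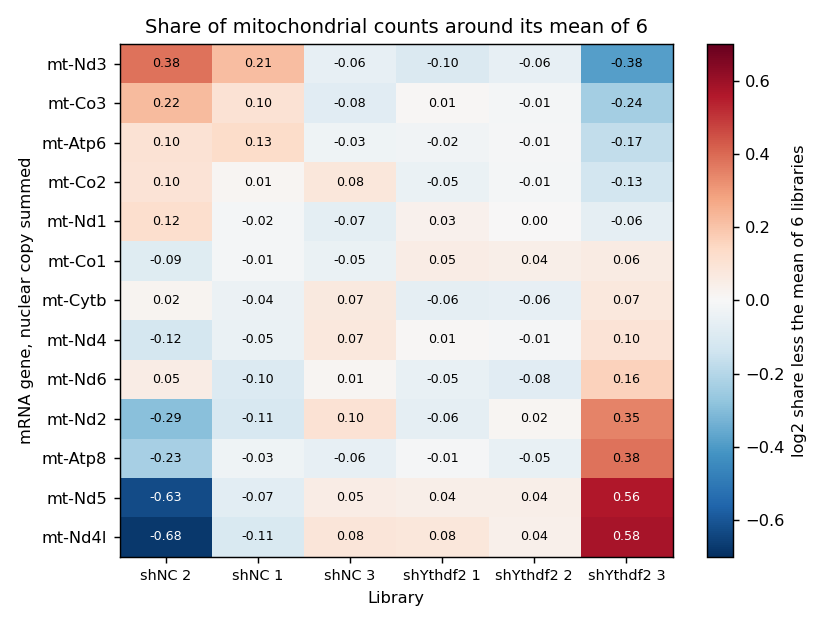
Log2 share of mitochondrial counts, with copies summed, less its mean over 6 libraries, for the 13 mRNA genes (rows) in each library (columns, with shNC 2 first and shYthdf2 3 last). The strongest values are those of mt-Nd5 and mt-Nd4l, negative in shNC 2 (-0.63 and -0.68) and positive in shYthdf2 3 (0.56 and 0.58).

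Nuclear genes that act on mitochondrial DNA and RNA were read from 8 lists with 123 genes, all tested. In edgeR 0 of 123 were called and 2 had an unadjusted p under 0.05, beside 0.00976% and 3.65% of all genes tested. The log2 fold change was positive for 45 and negative for 78, beside 9967 and 10522 of all genes tested. In CPM 2 lay above and 10 below without overlap, beside 4.95% and 4.55% of all genes tested. Median log2 fold changes were -0.08 for transcription, -0.11 for replication and nucleoid, -0.09 for RNA processing and turnover, -0.18 for aminoacyl-tRNA synthetases, -0.18 for rRNA modification and -0.22 for translation factors. They were 0.04 for tRNA modification and 0.12 for regulators of mitochondrial biogenesis. Fastk, a mitochondrial RNA-binding protein known to act on the ND6 mRNA, had CPM values of 171, 205 and 109 across shNC 1 to 3 against 105, 107 and 105 across shYthdf2 1 to 3. It lay below in all shYthdf2 libraries, narrowly so beside shNC 3 (-0.61 ± 0.26 SE, edgeR adjusted p = 0.976). Mrpl58, which frees stalled mitochondrial ribosomes, had CPM values of 24.7, 29.0 and 20.5 across shNC 1 to 3 against 18.9, 17.2 and 16.8 across shYthdf2 1 to 3. It too lay below in all shYthdf2 libraries (-0.49 ± 0.20 SE, adjusted p = 0.976). Tefm, the elongation factor of the mitochondrial RNA polymerase, had a log2 fold change of -0.46 ± 0.30 (SE, adjusted p = 0.976). Slirp, the partner of LRPPRC in keeping mitochondrial mRNAs stable, had -0.63 ± 0.33 and Trmt10c, a subunit of the RNase P that cuts tRNA ends, had 0.43 ± 0.26 (SE, adjusted p = 0.976 for both).

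The nuclear genes of the same complexes had other values than the mitochondrial ones. Of 36, 9, 13 and 18 nuclear genes of complexes I, III, IV and V, 0 passed in edgeR and all had a negative log2 fold change, with medians of -0.70, -0.61, -0.66 and -0.64. In CPM 0, 1, 1 and 1 of them lay below without overlap, beside 4.55% of all genes tested. The nuclear complex I genes summed to 11850.4 and 15527 CPM in shNC 1 and 2, but to 6344 CPM in shNC 3, below the 6478 to 7552 CPM of shYthdf2. For complex I the mean log2 CPM of the mitochondrial genes exceeded that of the nuclear genes by 4.79, 4.28 and 5.18 in shNC 1, 2 and 3 and by 5.39, 5.43 and 5.89 in shYthdf2 1, 2 and 3. Every shYthdf2 library lay above every shNC library, and the difference of the means was 0.82 on the log2 scale, or 0.58 to 1.03 when any 1 library was left out. Complexes III, IV and V also showed no overlap, with differences of 0.62, 0.69 and 0.67. These are not independent results, since the nuclear genes of each complex were on average highest in shNC 2 and next highest in shNC 1. Within shNC the ratio was lowest in shNC 2 and highest in shNC 3 for each complex, and the shNC libraries differed by more among themselves than shNC 3 differed from shYthdf2 1. No p is given, since the ratio is a score over the members, and it does not say which side differed.

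**Figure D5:**
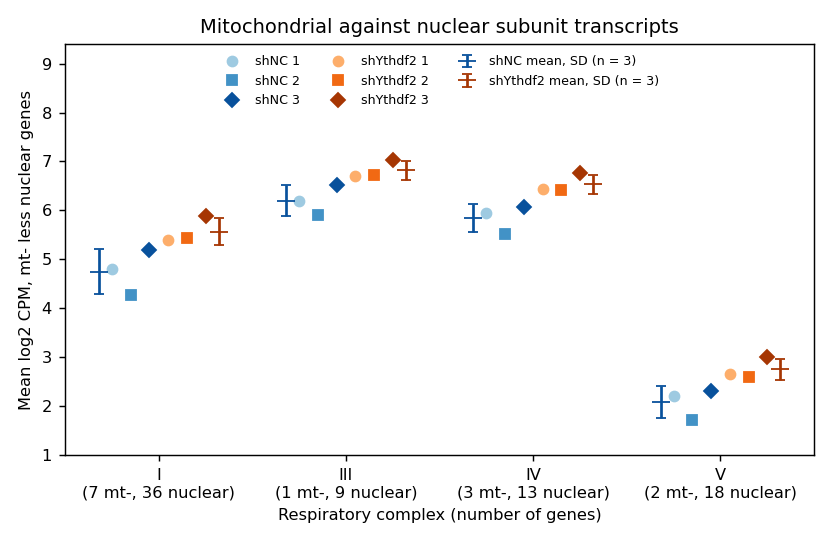
Mean log2 CPM of the mitochondrial genes of a complex less that of its nuclear genes (vertical axis) for complexes I, III, IV and V, by library, with group means and SD (n = 3) beside the points. In each complex shNC 2 is lowest and shYthdf2 3 highest, and shNC 3 is the shNC library closest to shYthdf2.

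Markers of cell types also differed between the libraries, and 0 of each list passed in edgeR. The 12 cardiomyocyte markers, of which 9 had a negative log2 fold change (median -0.48), summed to 44991, 62740 and 25832 CPM in shNC 1, 2 and 3. The 6 red cell markers, all negative (median -1.78), summed to 2096, 3692 and 479 CPM across shNC 1 to 3 against 613 to 641 CPM across shYthdf2. Both sums were highest in shNC 2, where the ratio of mitochondrial to nuclear genes was lowest. Both were lowest in shNC 3, where the complex I ratio of 5.18 was nevertheless below the 5.39 to 5.89 of shYthdf2. The 6 platelet markers, all positive (median 2.28), summed to 39.6 to 51.7 CPM in shNC, while shYthdf2 1 to 3 had 168, 174 and 51.1 CPM. The 4 smooth muscle markers, all positive (median 1.34), summed to 150 to 212 CPM and 280.1 to 576 CPM. shYthdf2 1 and 2 were thus high in both of these lists, while shYthdf2 3 was close to shNC in the platelet list. The 6 macrophage markers summed to 352 to 870.2 CPM in shNC and 525 to 604 CPM in shYthdf2, and the 6 neutrophil markers to 128 to 375 CPM and 121 to 489 CPM. The 6 fibroblast markers summed to 735 to 1166 CPM and 725 to 1448 CPM, and the 6 endothelial markers to 745 to 1395 CPM and 1076 to 1100 CPM. The part of any of these in the mitochondrial values was not tested.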

How the data were processed

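Per the labels, the 6 libraries were made from Trizol-extracted total RNA of mouse hearts, using the TruSeq RNA kit, and how many hearts were used is not stated. One deposited table holds whole-number counts per gene, not scaled to depth, beside the authors' own FPKM, and its headers name them count and FPKM. In 95.9% to 96.9% of the single-exon rows compared, the deposited count lay 0 to 1 above the value that the FPKM implies, so the expected counts were taken as rounded up. The submitters' processing notes list Bowtie 0.12.2 and build mm8 without saying what each was used for. Not given in the sources used here are the counting tool, its rule for reads that match several places, its strand setting and the build of the coordinates.

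edgeR 4.0.16 (R 4.3.3; quasi-likelihood F test, two-sided, TMM, filterByExpr, Benjamini-Hochberg over 20489 genes) was fitted to the whole table, with a threshold of an adjusted p of 0.05. SE and 95% intervals derive from its F statistic. Alternatives were DESeq2 1.42.0, limma 3.58.1 on log2(FPKM + 0.5), other scalings and filters, a replicate block and leaving out each library. Near-identical rows were found with BLAST 2.17.0, and adding them, like the ratio to nuclear genes and its alternatives, was chosen after seeing the data. Exact permutation tests of 3 against 3 cannot go below p = 0.1. All members are named or counted, and in each nuclear list at most the 3 genes with the smallest p. The members and lists were chosen with earlier results of these data known. The fitting code was tested on simulated data.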

Additional observations from a re-analysis of the deposited data

How the results depend on the processing

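No mitochondrial gene was called under any of the 16 alternatives in which it was tested, where the lowest adjusted p was 0.0686 (mt-Ti). Over all genes, 2 calls became 1 under total count scaling, 1 with library sizes from mitochondrial counts, 1 with limma, 0 with shYthdf2 1 and 2 summed and 47 with DESeq2, and 0 to 211 when a library was left out, with 211 without shNC 3. Libraries with the same replicate number had nearly unrelated deviations from their group means (correlations 0.0141, -0.0116 and -0.00554). The labels do not say whether these numbers pair the libraries, and with 3 libraries per group the correlations cannot decide it. With the replicate block 0 genes were called, and mt-Co2 and mt-Atp6 were at 0.0104 and 0.0219. Library sizes from mitochondrial counts moved the median of all genes to -0.23 and that of the mitochondrial mRNA genes to -0.04. The median of the mRNA genes ran from -0.0037 to 0.25 when a library was left out. The share of tRNA in summed FPKM differed by -0.272 percentage points, beside -0.0263 in counts. The cause of these changes was not tested.

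In 17 members the log2 fold change kept its sign under all alternatives, among them mt-Nd2, mt-Co1, mt-Atp8, mt-Nd4l, mt-Nd5 and mt-Nd3, and in 19 it did not. Under total count scaling mt-Co2 was at 0.0136 and mt-Atp6 at 0.0147. With limma mt-Co2 was at 0.0349, mt-Atp6 at 0.0470 and mt-Te at 0.0189. With library sizes from mitochondrial counts mt-Nd1 was at -0.0625, mt-Ta at -0.0048, mt-Nd4 at -0.0402, mt-Nd6 at -0.0194, mt-Cytb at -0.0708 and mt-Tp at -0.12. When a library was left out, log2 fold changes ran from -0.17 to 0.12 for mt-Co2, -0.23 to 0.11 for mt-Atp6, -0.30 to 0.11 for mt-Co3, -0.10 to 0.25 for mt-Nd1, -0.0035 to 0.21 for mt-Nd4, -0.0037 to 0.29 for mt-Nd6 and -0.0406 to 0.21 for mt-Cytb. They ran from -0.21 to 0.17 for mt-Rnr1 and -0.22 to 0.11 for mt-Rnr2. Among tRNA genes they ran from -0.15 to 0.0079 for mt-Tk, -0.27 to 0.17 for mt-Te, -0.0446 to 0.30 for mt-Tw, -0.14 to 0.35 for mt-Ta, -0.16 to 0.41 for mt-Tn, -0.0924 to 0.38 for mt-Tc, -0.0575 to 3.16 for mt-Tg, -0.0694 to 0.13 for mt-Tp, -0.43 to 0.0091 for mt-Tl2 and -0.42 to 0.11 for mt-Ts1. Differences in the share of mitochondrial counts ran from -0.676 to 0.0136 percentage points for mt-Nd1, -0.121 to 0.0351 for mt-Nd6 and -0.343 to 0.0197 for mt-Rnr1, and with copies added were 0.382 for mt-Nd4 and 0.0260 for mt-Nd6. The share of all counts differed by 1.92 to 4.41, that of rRNA by -0.856 to -0.0212 and that of tRNA by -0.0433 to -0.0123 percentage points when a library was left out. Depth did not limit the mRNA and rRNA genes, and the tRNA genes with few counts are the least certain.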
